A study of Caenorhabditis elegans with 8 samples.

Results

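The genes described here are the major sperm protein genes and other sperm genes of the nematode Caenorhabditis elegans: every gene in the files whose symbol begins with msp-, ssp- or spe- followed by a number. The rule uses names only, not levels. It found 72 genes among the 46904 in the files, of which 31 are msp, 12 are ssp and 29 are spe genes. One pair of identifiers shares the symbol ssp-9 in the WBcel235 annotation, and the second of them (WBGene00006040, chromosome IV, 4999485 to 4999814) is called ssp-11 here after RefSeq.

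Major sperm protein (MSP) is made in developing sperm, where it assembles into the fibres that move the crawling, amoeboid sperm cell. Sperm also release it as a signal that starts oocyte maturation and contraction of the gonadal sheath. The spe genes were named from mutants whose sperm fail to form, activate or fertilise, and the ssp genes encode small sperm proteins with an MSP-like domain. A hermaphrodite makes its sperm late in larval life and then switches to oocytes, so a young adult stores finished sperm that no longer transcribe their genes.

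RNA from whole bodies of day 1 adults kept at 20 °C was sequenced for 4 genotypes, with 2 libraries each. The double mutant hel-1(gk148684);daf-2(e1370) is strain IJ1121, daf-2(e1370) is CF1041, hel-1(gk148684) is IJ501, and N2 is the wild type. HEL-1 is a DEAD-box RNA helicase, DAF-2 is the insulin/IGF-1 receptor, and e1370 lowers receptor function. Each genotype is a single strain, and the 2 repeats of a genotype are independent according to the labels, which give no sex and no number of worms. The double mutant is compared below with daf-2, with hel-1 and with N2, and each single mutant with N2, so several comparisons share libraries.

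The libraries hold 31555368 to 37552513 counts. Transcripts of hel-1 itself had 526 to 565 CPM (counts scaled to library size, with edgeR's TMM factors) in the 4 libraries with gk148684 and 468 to 618 CPM in the other 4, and no comparison of hel-1 passed the test. The daf-2 transcript was higher in daf-2 over N2 (log2 fold change 0.33 ± 0.08 SE, adjusted p = 0.0308). Gene counts do not show either lesion, so these levels do not check the labels. For sperm genes the libraries did not group by genotype: daf-2 replicate 1 and N2 replicate 2 stood apart from the other library of their own genotype. Comparisons of the summed msp level that involve daf-2 or N2 are given with and without single libraries of these genotypes.

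The msp genes are short, single-exon genes in clusters. Coordinates are those of WBcel235. All 31 have 1 exon; 13 lie on chromosome II between 4785898 and 5810330, and 18 on chromosome IV between 5055631 and 10143740. In 28 of the 31 the coding sequence is 381 bases long without the stop codon. Reads from such similar copies cannot always be assigned to 1 gene, and 26 of the 31 msp genes had fractional counts in at least 1 library, 21 of them in all 8. The same held for 4 of 12 ssp genes, for 0 of 29 spe genes, and for 10.5% of all genes tested. How counts divide among msp copies is therefore uncertain, and the sum over the family is given beside single genes. The spe genes have several exons each and lie on chromosomes I (12 genes), II (1), III (2), IV (9) and V (5).

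Together the 31 msp genes made up a small and very uneven part of the libraries. Their summed level was 81.2 and 84.4 CPM in hel-1;daf-2, 94.3 and 300.6 CPM in daf-2, 259 and 218 CPM in hel-1, and 322 and 79.7 CPM in N2. In daf-2 replicate 2, both hel-1 libraries and N2 replicate 1 the sum was high, and in both hel-1;daf-2 libraries, daf-2 replicate 1 and N2 replicate 2 it was low, with no library in between. As a share of all counts, the lowest library was N2 replicate 2 at 0.00750% (95% exact Clopper-Pearson interval 0.00722 to 0.00780%) and the highest was daf-2 replicate 2 at 0.0337% (0.0331 to 0.0343%). These intervals cover counting error only, and the difference between the 2 libraries of daf-2 or of N2 is far outside them. In whole worms, fewer sperm or developing germ cells and less sperm RNA per cell cannot be told apart.

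**Figure D1:**
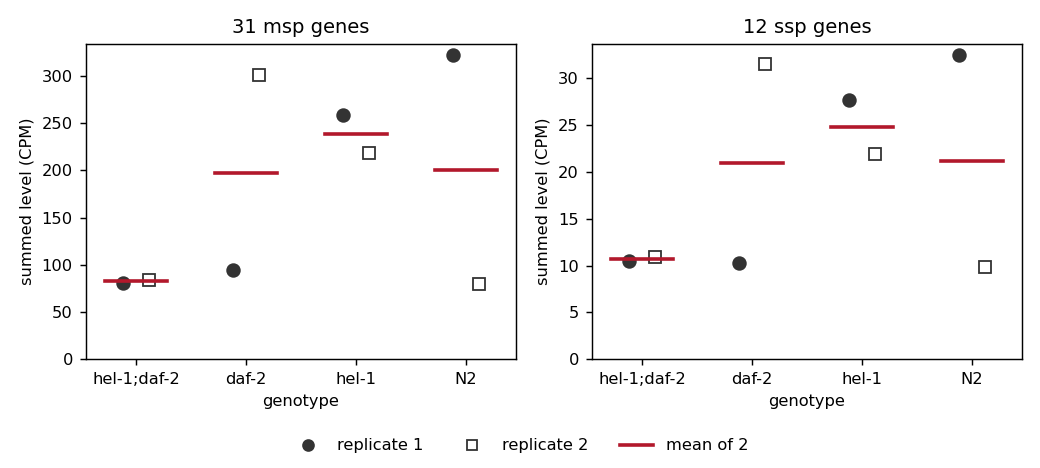
Summed level in CPM of the 31 msp genes (left) and the 12 ssp genes (right) in each library, by genotype; filled circles are replicate 1, open squares replicate 2, and red lines the mean of 2. The hel-1;daf-2 and hel-1 pairs lie close together, while the daf-2 pair (94.3 and 300.6 CPM for msp) and the N2 pair (322 and 79.7 CPM) lie far apart.

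The best expressed msp genes per kilobase of exon, on the CPM per kilobase scale and as means of 8 libraries, were msp-59 (32.5), msp-19 (30.0), msp-51 (28.5), msp-57 (27.7), msp-113 (25.04) and msp-36 (21.3). All 6 encode the same kind of cytoskeletal and signalling protein. Of these, msp-59 (WBGene00003452, chromosome IV, 5312728 to 5313111, minus strand) had 5.71 and 5.65 CPM in hel-1;daf-2, 7.09 and 22.4 CPM in daf-2, 17.4 and 14.7 CPM in hel-1, and 21.0 and 5.90 CPM in N2. For msp-19 (WBGene00003426, chromosome IV, 5260589 to 5260972, plus strand) the values were 5.41 and 6.34 CPM in hel-1;daf-2, 5.64 and 20.8 CPM in daf-2, 16.0 and 12.97 CPM in hel-1, and 20.0 and 4.81 CPM in N2. Both genes were low in the same 4 libraries and high in the same other 4, and so was msp-64 on chromosome II, which had whole counts only: 0.721 and 1.41 CPM in hel-1;daf-2, 1.198 and 5.19 CPM in daf-2, 5.97 and 6.92 CPM in hel-1, and 8.05 and 1.71 CPM in N2.

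A filter on low counts kept 55 of the 72 genes for testing: 28 msp, 10 ssp and 17 spe genes. The 3 untested msp genes, msp-32, msp-58 and msp-74, had at most 1.22 counts over all 8 libraries. In all 28 tested msp genes and all 10 tested ssp genes, daf-2 replicate 2, hel-1 replicates 1 and 2 and N2 replicate 1 were the 4 highest libraries. The same was true of 6 of 17 tested spe genes and of 8.09% of all 13722 genes tested. These 4 libraries were chosen after the msp sums were seen, so the counts describe the pattern and do not test it. N2 replicate 1 was the highest library for 20 msp genes, and daf-2 replicate 2 for the other 8.

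**Figure D2:**
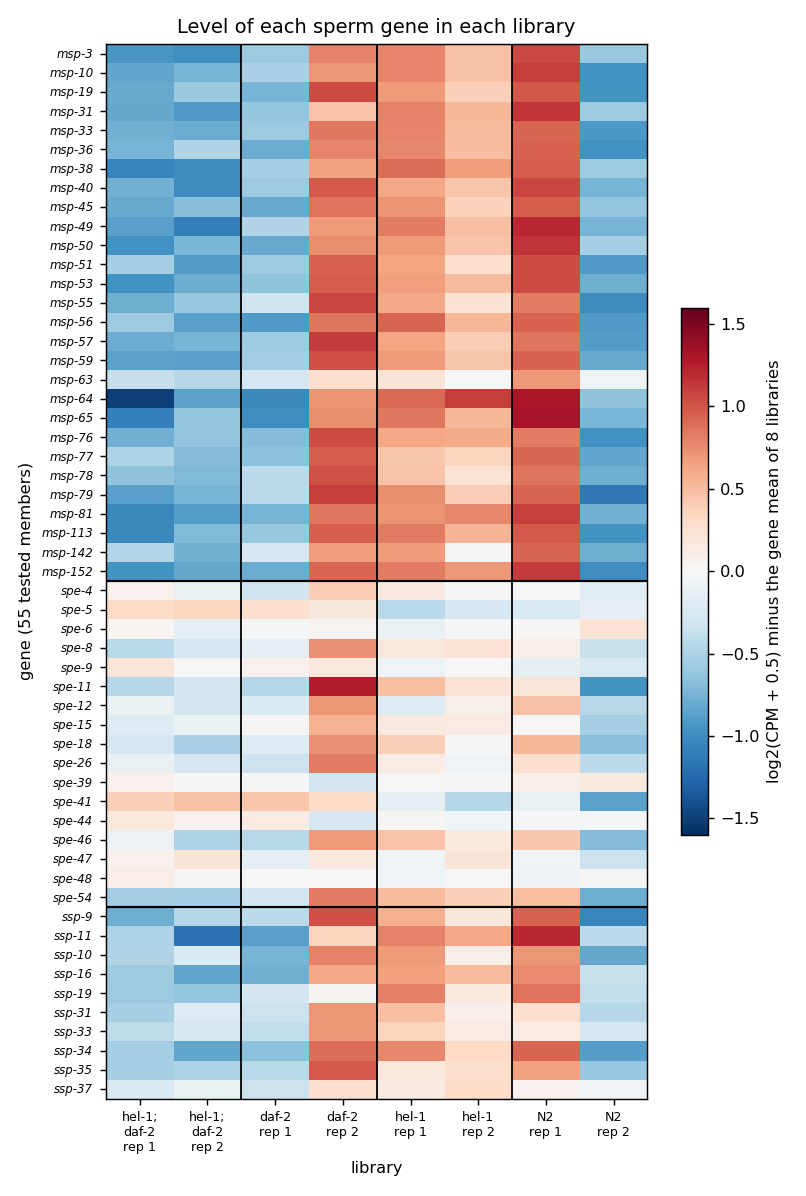
Level of each of the 55 tested genes in each library, as log2(CPM + 0.5) minus the mean of the gene over 8 libraries; rows are genes, columns are libraries and lines separate genotypes and gene classes. The msp rows at the top and the ssp rows at the bottom are red in the same 4 libraries and blue in the same other 4, while the spe rows in the middle vary in pattern.

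The ssp genes followed the msp pattern at a lower summed level, with 10.5 and 10.9 CPM in hel-1;daf-2, 10.2 and 31.5 CPM in daf-2, 27.7 and 21.9 CPM in hel-1, and 32.5 and 9.84 CPM in N2. Per kilobase the highest were ssp-9 (14.9 CPM per kilobase), ssp-11 (9.03), ssp-10 (8.84) and ssp-37 (5.69). Of these ssp-10, whose counts were whole, had 1.74 and 2.16 CPM in hel-1;daf-2, 1.36 and 4.89 CPM in daf-2, 4.48 and 2.84 CPM in hel-1, and 4.59 and 1.27 CPM in N2. The flattest of the tested ssp genes was ssp-37, with 2.07 and 2.32 CPM in hel-1;daf-2, 1.89 and 3.12 CPM in daf-2, 2.86 and 3.21 CPM in hel-1, and 2.67 and 2.39 CPM in N2. The 2 untested members, ssp-32 and ssp-36, had 19.8 and 37.2 counts in all.

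The spe genes did not form 1 pattern. The 3 best expressed, spe-39, spe-48 and spe-44, varied little. The gene spe-39, which acts in vesicle trafficking in many tissues as well as in sperm, had 93.2 and 89.7 CPM in hel-1;daf-2, 87.2 and 72.0 CPM in daf-2, 88.2 and 87.5 CPM in hel-1, and 94.4 and 98.6 CPM in N2. For spe-44, a SAND-domain regulator of transcription during spermatogenesis, the levels were 25.999 and 24.2 CPM in hel-1;daf-2, 25.3 and 19.1 CPM in daf-2, 23.4 and 22.3 CPM in hel-1, and 22.5 and 22.7 CPM in N2. In both genes the lowest library was daf-2 replicate 2, the library with the most msp counts. The levels of spe-48 were 30.7 to 34.9 CPM over all 8 libraries, and those of spe-6, a casein kinase I involved in sperm formation and activation, 3.64 to 4.81 CPM.

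Some other spe genes shared the msp pattern. In spe-11, spe-18, spe-26 and spe-8 the libraries high for msp genes all lay above those low for msp genes. In spe-15 this held in part. The gene spe-11, whose sperm-supplied product the early embryo needs, had 0.601 and 0.721 CPM in hel-1;daf-2, 0.599 and 3.14 CPM in daf-2, 1.62 and 1.28 CPM in hel-1, and 1.22 and 0.279 CPM in N2. Levels of spe-18, which is needed to pack MSP into fibrous bodies, were 2.37 and 1.91 CPM in hel-1;daf-2, 2.49 and 5.21 CPM in daf-2, 4.003 and 2.99 CPM in hel-1, and 4.51 and 1.68 CPM in N2. For spe-15, a myosin VI that acts when sperm bud off, the range was 7.30 CPM in N2 replicate 2 to 16.1 CPM in daf-2 replicate 2. The kelch-like spe-26 ranged from 0.683 CPM in N2 replicate 2 to 2.29 CPM in daf-2 replicate 2, and spe-8, a tyrosine kinase of sperm activation, from 0.0902 CPM in hel-1;daf-2 replicate 1 to 0.823 CPM in daf-2 replicate 2. The presenilin spe-4, at 0.694 to 1.47 CPM, and spe-9, an EGF-repeat protein of the sperm surface needed for fertilisation, at 0.155 to 0.391 CPM, were low throughout. Of the 12 untested spe genes, spe-38, a tetraspan fertilisation protein, had 8 counts over all 8 libraries and spe-42, another sperm membrane protein of fertilisation, had 21, too few to compare genotypes.

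Replicate gaps were measured as log2(CPM + 0.5) in replicate 2 minus that in replicate 1. In N2 the median gap was −1.83 over the 28 tested msp genes, −1.26 over the 10 ssp genes and −0.44 over the 17 spe genes, against 0.01 over all tested genes. In daf-2 the gap had the other sign, with a median of 1.56 for msp, 1.297 for ssp and 0.54 for spe genes, against 0.03 over all tested genes. Of the 28 msp genes, 27 had an N2 gap below −1 and 26 had a daf-2 gap above 1, compared with 2.16% and 7.64% of all tested genes. Both held at once for 35 of the 55 genes, of which 26 were msp, 6 ssp and 3 spe, and for 1.72% of all tested genes.

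Within the other 2 genotypes the replicates lay close together. The median msp gap was 0.06 in hel-1;daf-2 and −0.27 in hel-1, and 0 of the 55 genes had a gap past 1 in either direction there. Such gaps were rare among all tested genes too. In hel-1;daf-2 0.343% lay above 1 and 0.138% below −1, and in hel-1 0.459% and 0.102%. Among genes with a mean of at least 1 CPM, the largest N2 gap was that of msp-152, at −2.11, and the largest daf-2 gap that of msp-19, at 1.80. The smallest gaps belonged to spe genes, spe-44 in N2 at 0.01 and spe-48 in daf-2 at 0.00. These gaps set the spread for every test: the median biological coefficient of variation was 0.451 for msp, 0.471 for ssp and 0.252 for spe genes, against 0.156 over all tested genes.

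**Figure D3:**
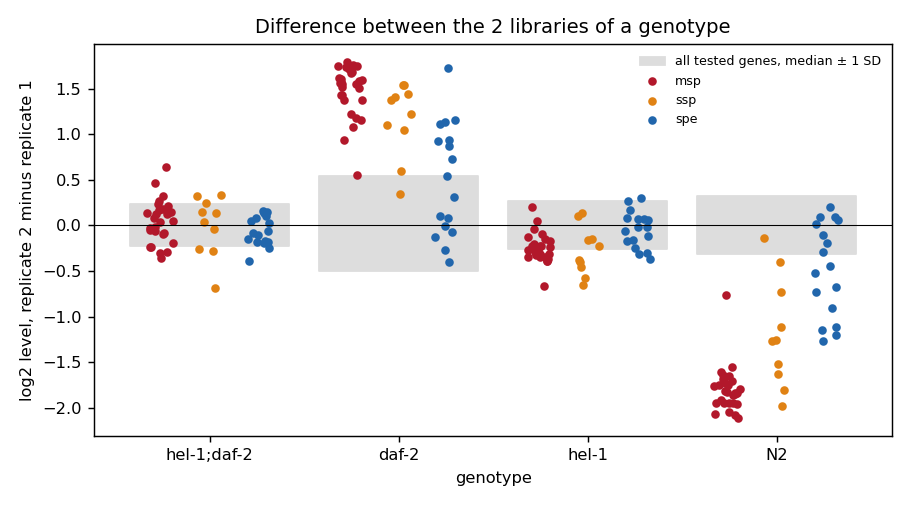
Difference between the 2 libraries of a genotype (log2 level in replicate 2 minus replicate 1) for each tested msp, ssp and spe gene; grey bands are the median ± 1 SD over all tested genes. The msp genes have a median of 1.56 in daf-2 and −1.83 in N2, and lie near 0 in hel-1;daf-2 and hel-1.

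Genes outside the rule moved between these replicates too. The other sperm-enriched genes, a list that includes the sperm phosphatase gsp-3 and the membrane-fusion gene fer-1, had 30 of 38 listed genes tested, with median gaps of −1.41 in N2 and 1.37 in daf-2. Over the same libraries the 23 oocyte genes had median gaps of 0.11 in N2 and −0.29 in daf-2, the 6 vitellogenin (yolk protein) genes −0.08 and −0.79, the 13 gonad sheath and spermatheca genes −0.19 and 0.38, and the 17 tested moulting and adult cuticle genes −0.38 and −0.12. The last list was mixed in daf-2, where 8 genes were higher and 9 lower in replicate 2 than in replicate 1, while in N2 16 of 17 were lower in replicate 2. Its summed level was 700.3 and 685 CPM in hel-1;daf-2, 861 and 1574 CPM in daf-2, 913 and 912 CPM in hel-1, and 728 and 537 CPM in N2, so it was highest in daf-2 replicate 2 and lowest in N2 replicate 2. Most of that sum was the adult collagen col-19, with 745 and 1443 CPM in the daf-2 libraries and 664 and 488 CPM in the N2 libraries. The collagens col-62 (7.63 and 35.1 CPM) and col-7 (4.89 and 16.3 CPM) were also higher in daf-2 replicate 2, whereas the moulting genes mlt-11 (12.2 and 6.13 CPM) and noah-1 (20.1 and 13.2 CPM) were lower there. These genes were singled out after their values were seen. The part of these lists in the sperm gene gaps was not tested.

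The clearest separation of genotypes was between hel-1;daf-2 and hel-1, the genotypes with close replicates, and neither has a library that stood apart. The summed msp level averaged 82.8 ± 2.25 CPM in hel-1;daf-2 and 238 ± 28.9 CPM in hel-1 (SD, n = 2 each), a ratio of 0.347 (log2 −1.53), which ranged from −1.64 to −1.40 when either library of either genotype was left out. All 28 tested msp genes, all 10 tested ssp genes and 7 of the 17 spe genes were lower in both hel-1;daf-2 libraries than in both hel-1 libraries. That makes 45 of 55 genes, against 34.5% of all tested genes. Another 6 genes, all spe, went the other way and were higher in both hel-1;daf-2 libraries. Libraries of 1 genotype differed by more in summed msp. The lower library over the higher was 0.248 in N2 and 0.314 in daf-2, against 0.347 for hel-1;daf-2 over hel-1. The hel-1;daf-2 sums (81.2 and 84.4 CPM) lay near those of N2 replicate 2 (79.7 CPM) and daf-2 replicate 1 (94.3 CPM). The source of the difference between hel-1;daf-2 and hel-1 was not tested. Any difference in data preparation between hel-1;daf-2 and hel-1 cannot be told apart from genotype, as described below for the msp make-up. With 2 libraries a side no exact permutation test can give a two-sided p below 0.333, so the fitted model is the test used.

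In edgeR's quasi-likelihood fit of all 8 libraries, which shares 1 spread per gene among the 4 genotypes, 0 of the 55 genes were called lower in hel-1;daf-2 over hel-1 at an adjusted p (Benjamini-Hochberg) under 0.05, against 2.65% of all tested genes called lower. Unadjusted, 16 had p under 0.05 and were lower (13 msp and 3 ssp), against 11% of all tested genes. The median log2 fold change was −1.58 for the 28 msp genes, −1.43 for the 10 ssp genes and −0.13 for the 17 spe genes, against −0.01 over all tested genes, and the smallest adjusted p among msp genes was 0.0879. The lead gene msp-59 had a log2 fold change of −1.50 ± 0.64 (SE) with an adjusted p of 0.212, and msp-64 had −2.59 ± 0.85 with 0.126.

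The count depended on which libraries entered the fit. When only the hel-1;daf-2 and hel-1 libraries were fitted, which leaves out daf-2 and N2 with their wide replicate gaps, 37 of the 52 genes then tested fell in hel-1;daf-2, against 11.5% of all genes in that fit. They were all 27 msp genes tested there, 7 ssp genes (ssp-9, ssp-11, ssp-16, ssp-19, ssp-33, ssp-34 and ssp-35) and 3 spe genes (spe-8, spe-11 and spe-54). Another 2 genes, spe-5 and spe-41, were called higher in that fit, as were 1410 of all 13024 genes. There msp-59 had −1.49 ± 0.13 with an edgeR adjusted p of 0.00285 and msp-64 had −2.59 ± 0.30 with 0.00618. The fold changes were nearly those of the wider fit, and the SE was smaller. The narrower fit took its spread only from hel-1;daf-2 and hel-1, whose replicates lay close together. It holds none of the wide gaps seen for these genes within daf-2 and N2. The msp genes also rose and fell together across libraries, and 26 of the 31 had fractional counts. Calls of msp genes from these libraries alone are therefore not independent, and describe a shared shift of the family. With DESeq2 on the same 4 libraries 33 genes were lower, against 8.16% of all genes, and with DESeq2 on all 8 libraries 5 were lower (msp-3, msp-31, msp-38, msp-49 and ssp-11), against 3.19%.

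**Figure D4:**
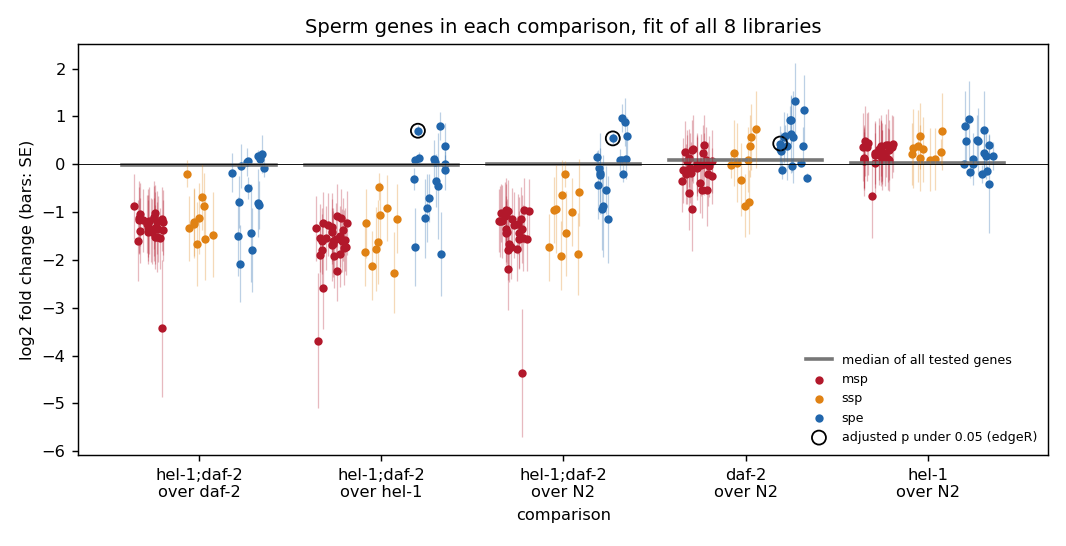
Log2 fold change (points) and SE (bars) of each tested msp, ssp and spe gene in the 5 comparisons of genotypes, from the fit of all 8 libraries; grey lines are the median of all tested genes and rings mark an adjusted p under 0.05. All msp and ssp points lie below 0 in the 3 comparisons of hel-1;daf-2, and all 3 rings are spe-5. The lowest point in those comparisons is msp-63, with 1 count in the 2 hel-1;daf-2 libraries together.

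One sperm gene passed the test of all 8 libraries, and it was higher. The gene spe-5 (WBGene00004959, chromosome I, 5101665 to 5103476), which encodes a B subunit of the vacuolar proton pump, had 14.5 and 14.96 CPM in hel-1;daf-2, 13.997 and 13.3 CPM in daf-2, 8.51 and 9.60 CPM in hel-1, and 9.77 and 10.5 CPM in N2. All 4 libraries with daf-2(e1370) lay above all 4 without it. The share of all tested genes with this separation is not given here. Genotype and any difference in data preparation cannot be told apart here, as described below for the msp make-up. The gene spe-5 rose in hel-1;daf-2 over hel-1 by 0.70 ± 0.12 on the log2 scale (edgeR adjusted p = 0.0185), with 2.96% of all tested genes called higher. This call was kept under 10 of 14 alternatives and lost when any 1 of the 4 compared libraries was left out (adjusted p up to 0.178).

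The same gene was called higher in hel-1;daf-2 over N2 (0.54 ± 0.12, edgeR adjusted p = 0.0494) and in daf-2 over N2 (0.43 ± 0.12, adjusted p = 0.0426). Neither call was firm: the alternatives kept the first in 4 of 14 settings and the second in 0 of 14, with adjusted p of 0.011 to 0.358 and 0.053 to 0.32, while the direction stayed in all of them. The 3 comparisons share libraries. On the other strand spe-5 overlaps 68 exon bases of ift-20, and the sources used here do not say whether counting used strand. The 4 daf-2(e1370) libraries were also the highest for spe-41, a TRP-family calcium channel of sperm, with 5.05 and 5.39 CPM in hel-1;daf-2, 5.30 and 4.81 CPM in daf-2, 3.34 and 2.62 CPM in hel-1, and 3.43 and 1.86 CPM in N2. Its log2 fold change was 0.81 ± 0.29 over hel-1 for hel-1;daf-2 (edgeR adjusted p = 0.152) and 0.93 ± 0.29 for daf-2 over N2 (adjusted p = 0.0588). With only hel-1;daf-2 and hel-1 fitted, the adjusted p of spe-41 was 0.0313 with edgeR and 0.0345 with DESeq2. For daf-2 over N2 the edgeR adjusted p was 0.0246 with no filter, while fits of daf-2 and N2 alone called 0 sperm genes. As for spe-5, the share of all tested genes highest in these 4 libraries is not given here, and genotype and any difference in data preparation cannot be told apart.

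Against daf-2, the double mutant's summed msp level averaged 82.8 ± 2.25 CPM, compared with 197 ± 146 CPM in daf-2 (SD, n = 2 each; log2 ratio −1.25). Only 18 of the 28 tested msp genes were lower in both hel-1;daf-2 libraries than in both daf-2 libraries. In all, 25 of the 55 genes were lower in this way, against 28.5% of all tested genes. Another 3 genes, all spe, were higher in both hel-1;daf-2 libraries. The edgeR fit called 0 of the 55 genes, with 0.051% of all tested genes called, and DESeq2 also called 0, with 0.0947% of all tested genes called higher and 1.77% lower. Unadjusted, 3 genes had p under 0.05, all lower, a smaller share than the 12.8% of all tested genes that were lower at that threshold. The value rests on daf-2 replicate 2: without it the log2 ratio was −0.19 and the median over the tested sperm genes −0.04. Without daf-2 replicate 1 the ratio was −1.86 and 25 of the 60 genes then tested were called, 23 of them lower (14 msp, 4 ssp and 5 spe), against 19% of all genes called lower and 21% higher in that fit.

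Against N2, hel-1;daf-2 averaged 82.8 ± 2.25 CPM of summed msp, compared with 201 ± 171 CPM in N2 (SD, n = 2 each; log2 ratio −1.28). Here 12 of 28 msp genes were lower without overlap, within 17 of the 55 genes, against 29.1% of all tested genes. Another 6 genes, all spe, were higher without overlap. Apart from spe-5, edgeR called 0 genes in either direction, while 1.17% of all tested genes were called lower and 3.1% higher; 9 genes had an unadjusted p under 0.05 and were lower, against 8.43% of all tested genes. DESeq2 called 5 lower, namely msp-3, msp-31, msp-38, msp-49 and ssp-11, against 2.1% of all tested genes. N2 replicate 1 decides the direction, since without it the log2 ratio was 0.05, and without N2 replicate 2 it was −1.96.

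Neither single mutant differed from N2 in its mean msp level by more than the spread between libraries. The summed level averaged 197 ± 146 CPM in daf-2 and 201 ± 171 CPM in N2 (SD, n = 2 each; log2 ratio −0.02), and it moved to −1.09 without daf-2 replicate 2 and to 1.31 without N2 replicate 1. In hel-1 it averaged 238 ± 28.9 CPM, against 201 ± 171 CPM in N2 (log2 ratio 0.25), and it moved to 1.58 without N2 replicate 1 and to −0.43 without N2 replicate 2. In daf-2 over N2, 0 msp and 0 ssp genes were called, and spe-5 was the 1 spe gene, with 12.1% of all tested genes called higher and 7.21% lower. For msp and ssp genes 0 also had an unadjusted p under 0.05, against 23.1% of all tested genes higher and 17.2% lower, and DESeq2 called 1 gene, spe-39, lower, against 10.5% of all tested genes. In hel-1 over N2, edgeR and DESeq2 each called 0 of the 55 genes, with 0.415% of all tested genes called by edgeR and 1.55% called higher and 0.24% lower by DESeq2, and 0 had an unadjusted p under 0.05, against 12.2% of all tested genes. These comparisons leave wide room for change: the median SE of a single msp gene was 0.65 log2 units in each.

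The difference of differences, hel-1;daf-2 minus daf-2 against hel-1 minus N2, had a median of −1.40 over the 55 genes, compared with −0.09 over all tested genes. Single libraries decide its size: the median over the sperm genes was −1.95 without daf-2 replicate 1 and −0.40 without daf-2 replicate 2, and −2.78 without N2 replicate 1 and −0.68 without N2 replicate 2. edgeR and DESeq2 each called 0 of the 55, while edgeR called 0.0729% of all tested genes higher and 0.751% lower and DESeq2 0.299% and 4.21%. Of the 55, 2 genes were lower and 1 higher at an unadjusted p under 0.05, against 18.3% of all tested genes lower and 9.41% higher. Without daf-2 replicate 1, 13 of 60 genes were called, 11 of them lower, against 21.6% of all genes called lower and 24.2% higher in that fit.

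The make-up of the msp sum differed from its size. The 13 msp genes of chromosome II made up 25.9 and 24.9% of the msp sum in hel-1;daf-2, 26.8 and 25.7% in daf-2, 29.1 and 29.3% in hel-1, and 30.0 and 29.8% in N2. All 4 libraries with daf-2(e1370) lay below all 4 without it, including N2 replicate 2 and daf-2 replicate 1 with their low sums. Of single genes, msp-3, msp-31, msp-64 and msp-81 took a smaller share, and msp-55, msp-57 and msp-78 a larger share, in every daf-2(e1370) library than in every other one, as with msp-57 at 6.26, 6.25, 6.35 and 6.79% in the 4 daf-2(e1370) libraries and 5.57, 5.605, 5.27 and 5.88% in the 4 others. Shares of all other msp genes overlapped between these groups of libraries, including msp-33, msp-40, msp-45, msp-142 and msp-152 of chromosome II. Of the genes with a smaller share, msp-81 lies on chromosome IV. This measure was chosen after its values were seen, carries no test, and depends on how reads were divided among copies. The deposited tables of the 2 daf-2(e1370) genotypes are also laid out differently from those of the other 2 genotypes, so genotype and any difference in file preparation cannot be told apart.

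**Figure D5:**
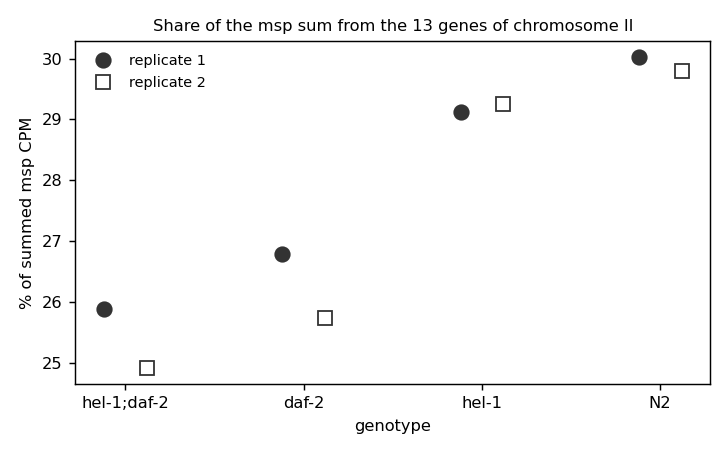
Share of the summed msp CPM that came from the 13 genes of chromosome II, in percent, for each library by genotype; filled circles are replicate 1 and open squares replicate 2, and the axis does not start at 0. The hel-1;daf-2 and daf-2 libraries lie at 24.9 to 26.8% and the hel-1 and N2 libraries at 29.1 to 30.0%.

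Genes that act around sperm were read from 9 lists. In hel-1;daf-2 over hel-1 the 30 tested other sperm-enriched genes had a median log2 fold change of −1.24, with 0 called. Of all tested genes, 2.96% were called higher in that comparison and 2.65% lower. In daf-2 over N2 the median was 0.34 and 1 of the 30 was called lower, against 7.21% of all tested genes. It was zipt-7.1, a zinc transporter of sperm activation (−0.31 ± 0.07, edgeR adjusted p = 0.0265, kept under 5 of 14 alternatives). Among 24 tested regulators of the choice between sperm and oocyte, fog-3, a Tob-family protein that germ cells need to become sperm, fell in hel-1;daf-2 over hel-1 (−1.81 ± 0.33, edgeR adjusted p = 0.0231). It had 0.631 and 0.439 CPM in hel-1;daf-2, 0.694 and 0.823 CPM in daf-2, 1.88 and 1.90 CPM in hel-1, and 1.13 and 0.869 CPM in N2. The call was kept under 10 of 14 alternatives and lost when any 1 of the 4 compared libraries was left out (adjusted p up to 0.22). Its 2 libraries of daf-2 and of N2 lay closer together than those of the msp genes.

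In the same list tra-1, the zinc-finger regulator of female fate, fell in hel-1;daf-2 over N2 (−0.43 ± 0.09, edgeR adjusted p = 0.0432, kept under 7 of 14 alternatives). There 1.17% of all tested genes were called lower. In daf-2 over N2 the RNA-processing factor mog-2 (−0.46 ± 0.07, adjusted p = 0.00702), the RNA-binding fbf-2 (−0.50 ± 0.12, 0.0286) and the calpain tra-3 (−0.44 ± 0.11, 0.0364) fell, while the other 21 of the list did not pass. These 3 calls were kept under 11, 8 and 7 of 14 alternatives in that order of genes. They are 3 of 24 genes, against 7.21% of all tested genes called lower in daf-2 over N2. Of 20 genes on the receiving side of the MSP signal, 0 were called in the comparison of hel-1;daf-2 with hel-1, and the kinase A subunits kin-2 (0.41 ± 0.10, edgeR adjusted p = 0.0286) and kin-1 (0.64 ± 0.18, 0.046) rose in daf-2 over N2, calls kept under 5 and 4 of 14 alternatives.

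Most germline and gonad lists had medians near that of all tested genes (−0.01) between hel-1;daf-2 and hel-1. The median log2 fold change was 0.12 for 23 oocyte genes, 0.03 for 18 mitotic and meiotic germline genes, −0.04 for 9 early zygotic genes and −0.05 for 6 vitellogenins, with 0 called in each. For 13 gonad sheath and spermatheca genes it was −0.05, with the innexin inx-9 called higher (0.58 ± 0.13, edgeR adjusted p = 0.0397, kept under 7 of 14 alternatives). For 17 moulting and adult cuticle genes it was −0.64, with the fibrillin-like fbn-1 called lower (−1.46 ± 0.22, edgeR adjusted p = 0.012, kept under 10 of 14). In this comparison 2.96% of all tested genes were called higher and 2.65% lower. In daf-2 over N2, 6 of 18 mitotic and meiotic germline genes, among them glh-1, syp-1 and syp-2, 1 oocyte gene (egg-5) and 1 vitellogenin (vit-1) were called lower, 5 sheath and spermatheca and 5 moulting genes were called higher, and 0 early zygotic genes were called, with 12.1% of all tested genes called higher and 7.21% lower. These calls in daf-2 over N2 depended on single libraries. Without daf-2 replicate 1 the number called lower was 17 of 18 mitotic and meiotic germline genes, 19 of 23 oocyte genes and 6 of 6 vitellogenins, and the number called higher was 9 sheath and spermatheca genes (2 others were lower) and 6 moulting genes, against 23.9% of all genes called lower and 25.3% higher in that fit. Without N2 replicate 2 the number called was 0 in each of these 5 lists, against 0.495% of all genes called lower and 1.55% higher. Of 14 alternatives, 6 kept the calls of glh-1 and egg-5, 7 that of vit-1 and 8 those of syp-1 and syp-2. Some calls of higher genes were kept more often. Among moulting genes, nas-37 was kept under 13, col-62 under 11 and noah-1 under 9. Among sheath and spermatheca genes, plc-1 was kept under 11, inx-9 under 10 and tni-1 under 8.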

How the data were processed

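RNA-seq of whole-body day 1 adults was analysed in 8 libraries, 2 for each of 4 genotypes. The authors deposited expected counts per gene, 1 file a library, per the file headers. The submitters' processing notes name RSEM 1.3.1, FastQC, cutadapt, TopHat2, Bowtie, HTSeq and edgeR, with no role or order, and WBcel235 (also written ce11) as the genome build. Which of these aligners was used for the counts, and the strand setting, are not given in the sources used here.

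Expected counts were rounded (2.03 to 2.79% of values per library were not whole, with a tolerance of 0.001). Genes passing edgeR 4.0.16 filterByExpr (13722 of 46904, R 4.3.3) were scaled with TMM and fitted with 1 quasi-likelihood model of 4 genotype means over all 8 libraries, with no replicate term, 4 residual degrees of freedom and a common biological coefficient of variation of 0.168. P-values were adjusted by Benjamini-Hochberg over all tested genes, with a threshold of 0.05. The script was tested on simulated data. CPM are TMM-scaled, and gaps use a pseudocount of 0.5 CPM. Alternatives were relative log expression (RLE) scaling, DESeq2 1.42.0, no filter, only the 2 genotypes compared, a replicate block and leaving out each library; DESeq2 on 2 genotypes was added after seeing the data. A planned sum over near-identical msp copies by coding identity was not run because no sequence was used here, so the whole msp family was summed.

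Named genes are the best expressed members, called members, those with the largest or smallest gaps, members chosen for their role in sperm formation or fertilisation, and up to 3 called genes of each of 9 lists. Members and lists were chosen with earlier results of these data known. The labels pair no replicates across genotypes.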

Additional observations from a re-analysis of the deposited data

How the results depend on the processing

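Counts of called sperm genes, in either direction, depended on the tool, the filter and the libraries. In hel-1;daf-2 over hel-1 the count was 1 in the fit of all 8 libraries, 6 with DESeq2, 20 with no filter on low counts, 39 with only those 2 genotypes and 35 with DESeq2 on those 2, against 5.61, 6.07, 6.4, 22.3 and 15.1% of all genes called in either direction. This count and the share of all genes called both changed when 1 library was left out. In hel-1;daf-2 over N2 the count was 1, then 0 with RLE scaling, 5 with DESeq2, 10 with no filter, 0 with the replicate block and 4 with DESeq2 on 2 genotypes, against 4.26, 4.17, 5.88, 5.42, 4.69 and 17.1% of all genes. Again the count and that share changed when 1 library was left out. In daf-2 over N2 the count was 1, then 0 with RLE scaling, 2 with no filter, 0 with only 2 genotypes and 0 with DESeq2 on 2 genotypes, against 19.3, 18.3, 18.1, 3.21 and 10.8% of all genes. Here too the count and that share changed when 1 library was left out. The 1 gene was spe-5 in the wider fit, spe-39 with DESeq2 and spe-41 with the replicate block. It ranged from 0 to 25 in hel-1;daf-2 over daf-2 and from 0 to 13 for the difference of differences, both at their highest without daf-2 replicate 1, and from 0 to 0 in hel-1 over N2. A genotype left with 1 library was assumed to vary like the others. The cause of these shifts was not tested.

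The log2 ratio of summed msp ranged over left-out libraries from −1.86 to −0.19 for hel-1;daf-2 over daf-2, from −1.64 to −1.40 over hel-1 and from −1.96 to 0.055 over N2, from −1.09 to 1.31 for daf-2 over N2 and from −0.43 to 1.58 for hel-1 over N2. RLE scaling or plain library totals moved none of the 5 ratios by more than the spread between libraries, though daf-2 over N2, at −0.02, was 0.18 with plain totals. RLE scaling moved the median of all tested genes from 0.10 to 0.03 in daf-2 over N2. A pseudocount of 0.1 CPM moved the median N2 gap of the 55 tested sperm genes to −1.83 from −1.63.

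Replicate numbers did not pair the libraries: deviations of same-numbered libraries correlated at −0.48 between daf-2 and N2 and at 0.0041 to 0.211 otherwise. With the replicate block, 1 of the 55 sperm genes was called in hel-1;daf-2 over hel-1, 0 over N2, 0 over daf-2, 1 in daf-2 over N2, 0 in hel-1 over N2 and 0 for the difference of differences. In the same order, 347, 451, 2, 1458, 62 and 11 of all 13722 tested genes were called higher. Those called lower were 324, 193, 9, 912, 10 and 101. Summing near-identical msp copies, at 97% identity or less, was not run. With 2 libraries a genotype and replicate gaps this wide in daf-2 and N2, moderate changes of single msp genes there could not be detected at this replication, whatever the depth. P-values measure the spread between libraries as deposited.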
